A study of Mus musculus with 12 samples.

Results

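The Hox genes are the homeobox genes of 4 chromosomal clusters, and 38 of them were listed for the mouse osteosarcoma lines Dunn and LM8. Members were found through the accession that each array probe carries, and all 38 listed genes had a probe, among 20144 genes matched on the array. They were covered by 41 of 39429 probes: Hoxa9, Hoxa13 and Hoxb3 had 2 probes each, and every other member had 1. The Hoxa cluster on chromosome 6 gave 10 of them, 10 came from Hoxb on chromosome 11, 9 from Hoxc on chromosome 15 and 9 from Hoxd on chromosome 2.

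Dunn is a mouse osteosarcoma line of low metastatic potential, and LM8 was derived from it by selection in mice for spread to the lung. RNA of both lines was hybridised to 12 one-colour arrays in 4 groups of 3: early Dunn cells at passage 25, late Dunn cells at passage 86, early LM8 cells at passage 24 and late LM8 cells at passage 91. All groups were grown in the same medium with serum and antibiotics, and the late cells of each line came from its early cells. Early and late cells had been frozen, thawed and passaged further under one condition before RNA was taken. Each line is a single cell line, and nothing says that the 3 samples of a group came from separate cultures, so p-values measure the spread between these samples only, which may be technical.

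Hox proteins are transcription factors that tell a cell where along the body axis it lies. Within a cluster the genes lie in the order in which they act: low paralog numbers pattern the head and neck, middle numbers the trunk, and high numbers the lumbar region, the tail and the ends of the limbs. Mesenchymal cells keep much of the Hox pattern of their site of origin in culture, held by Polycomb repressors on silent genes and trithorax proteins on active ones. The comparisons ask whether this pattern was the same after long culture, and whether it differed between the parental line and its metastatic derivative.

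Signals are given as log2 values relative to the 75th percentile of the probes on the same array, so that 0 is the level of that percentile. These levels compare 1 probe between arrays, and were not compared between genes. A gene was called above background in a group when a probe passed the scanner's test of being well above background on all arrays of that group. A difference was called when limma gave a Benjamini-Hochberg adjusted p under 0.05 (two-sided, over all probes) at more than 2-fold with the higher group above background; calls at an unadjusted p under 0.05 are given beside them. The 75th percentile signal rose from between 253.1 and 521.6 on the early Dunn arrays to between 609.1 and 840.4 in late Dunn, 788.2 and 1148 in early LM8, and 1033 and 1699 in late LM8 cells. After scaling, the median difference over all probes was -0.34 for late minus early Dunn, -0.21 for late minus early LM8, -0.87 for early LM8 minus early Dunn and -0.69 for late LM8 minus late Dunn, and member differences stand against these shifts. The osteoblast label was borne out by 7 to 8 of 9 measured osteoblast markers above background in each group, among them Runx2, Sp7, Col1a1 and Ibsp. Of other lineages, 0 of 4 epithelial, 1 of 3 macrophage, 1 to 2 of 3 endothelial and 2 of 4 fibroblast markers passed in each group. Bglap and Cd68 were listed but not matched. No marker of these lists was called at an adjusted p. At an unadjusted p, 2 osteoblast, 1 endothelial and 1 fibroblast marker were lower in early LM8 than in early Dunn cells (9.44% of all genes). Between the late groups 3 osteoblast markers were higher in LM8 cells (5.33%) and 1 fibroblast marker lower (6.71%). From early to late LM8 cells 1 osteoblast marker was higher (2.15%).

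The sequences before the start sites of Hoxa10 and Hoxa11, and of Hoxd3 and Hoxd4, are shown because these neighbours in the Hoxa and Hoxd clusters fell on opposite sides of the background limit, the Hoxd pair in LM8 cells only. Hoxa10 lies at chr6:52231197-52240854 and Hoxa11 at chr6:52242105-52245810, both on the minus strand. Hoxd3 lies at chr2:74711993-74748271 and Hoxd4 inside its span at chr2:74721978-74729160, both on the plus strand. Each run is the 250 bases upstream of a RefSeq start on build GRCm38.p6, on the strand of the gene, with CG dinucleotides in capitals. RefSeq gives 2 starts for Hoxa10, and the windows are chr6:52240855-52241104 for the outer start, chr6:52234940-52235189 for the inner start, chr6:52245811-52246060 for Hoxa11, chr2:74711743-74711992 for Hoxd3 and chr2:74721728-74721977 for Hoxd4.
Hoxa10, outer start: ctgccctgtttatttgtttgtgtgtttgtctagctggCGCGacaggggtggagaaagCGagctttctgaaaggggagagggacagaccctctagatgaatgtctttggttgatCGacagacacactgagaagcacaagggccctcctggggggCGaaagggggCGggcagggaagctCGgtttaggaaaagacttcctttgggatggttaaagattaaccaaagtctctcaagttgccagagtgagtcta
Hoxa10, inner start: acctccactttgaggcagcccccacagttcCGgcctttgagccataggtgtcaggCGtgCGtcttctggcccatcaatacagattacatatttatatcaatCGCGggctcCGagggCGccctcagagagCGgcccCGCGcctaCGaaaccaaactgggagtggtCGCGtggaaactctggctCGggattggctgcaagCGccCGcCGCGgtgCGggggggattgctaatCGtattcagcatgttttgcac
Hoxa11: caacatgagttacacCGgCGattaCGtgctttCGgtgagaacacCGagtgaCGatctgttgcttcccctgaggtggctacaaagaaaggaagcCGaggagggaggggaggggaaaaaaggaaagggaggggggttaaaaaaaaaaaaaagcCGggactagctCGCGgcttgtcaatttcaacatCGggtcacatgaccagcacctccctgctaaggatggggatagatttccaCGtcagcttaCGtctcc
Hoxd3: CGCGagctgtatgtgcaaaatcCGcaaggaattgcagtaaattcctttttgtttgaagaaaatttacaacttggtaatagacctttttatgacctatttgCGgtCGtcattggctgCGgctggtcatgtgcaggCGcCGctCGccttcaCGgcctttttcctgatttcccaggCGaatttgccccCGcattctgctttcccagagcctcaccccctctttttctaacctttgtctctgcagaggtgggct
Hoxd4: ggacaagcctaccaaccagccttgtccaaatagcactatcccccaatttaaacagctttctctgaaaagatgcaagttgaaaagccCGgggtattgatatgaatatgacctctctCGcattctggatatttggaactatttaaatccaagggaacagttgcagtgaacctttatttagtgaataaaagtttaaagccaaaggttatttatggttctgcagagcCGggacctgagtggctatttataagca

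The upstream windows held 7 CG dinucleotides at the outer and 20 at the inner Hoxa10 start, against 13 at Hoxa11. In the Hoxd pair the gene above background in no group had the higher number, with 12 at Hoxd3 and 3 at Hoxd4. Of the 38 members, 22 had an entry in the promoter table, with 24 start sites. The 12 windows of genes above background in at least 1 group held a median of 10 CG dinucleotides, with a range of 3 to 28, and the 12 windows of genes above background in none held a median of 13, with a range of 2 to 35. These ranges overlapped over nearly their whole length, and the median over all 32851 promoter windows was 6. The letters TATAAA, searched on both strands, were present in 3 of 12 windows of the first set (Hoxa10 inner start, Hoxb8 and Hoxd4) and 1 of 12 of the second (Hoxd13), against 12.4% of all promoter windows. The letters TGATTNAT, a form of the site bound by Hox proteins together with homeodomain partners, were found at Hoxa2 and at 1 of the 2 Hoxd11 starts, against 2.82% of all windows. A match is a run of letters and no measured binding site.

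Above background were 20 of the 38 members in early Dunn, 22 in late Dunn, 26 in early LM8 and 26 in late LM8 cells. All 4 groups shared 20 members (52.6%), and 12 (31.6%) passed in none. Over all 20144 matched genes the shares were 48.4%, 54.9%, 59.3% and 61.2% in the 4 groups in the same order, with 47.6% in all groups and 37.1% in none. The rise in the member count from early Dunn to LM8 cells thus went with a rise over all genes and with brighter arrays, and their part in it was not tested. A lower signal can stand for fewer expressing cells or for less RNA per cell, which these arrays cannot tell apart.

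The members above background in all 4 groups were Hoxa2, Hoxa3, Hoxa4, Hoxa6, Hoxa9 and Hoxa10 of the Hoxa cluster, Hoxb2, Hoxb4, Hoxb5, Hoxb6, Hoxb7, Hoxb8, Hoxb9 and Hoxb13 of Hoxb, and Hoxc4, Hoxc6, Hoxc8, Hoxc9, Hoxc10 and Hoxc11 of Hoxc. No Hoxd gene was among them. Hoxd cluster genes, which pattern the limb and the lower trunk, were above background for 0 of 9 members in both Dunn groups and for 1 of 9, Hoxd4, in both LM8 groups. In contrast, 8 to 9 of 10 Hoxb genes, 6 to 8 of 10 Hoxa genes and 6 to 8 of 9 Hoxc genes passed in each group.

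**Figure D1:**
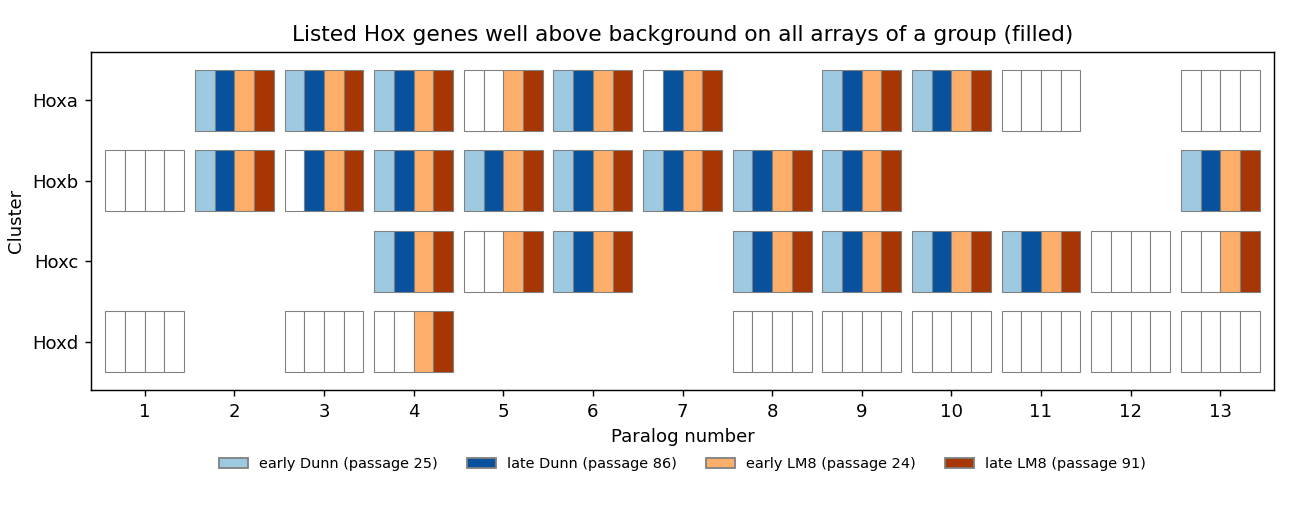
Each box is a listed Hox gene, placed by cluster (rows) and paralog number (columns), and its 4 bars stand for early Dunn, late Dunn, early LM8 and late LM8 cells. A filled bar means that the gene was well above background on all arrays of that group: the Hoxd row is empty except for Hoxd4 in LM8 cells, and 20 boxes are filled in all 4 groups.

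By paralog number, 6 to 8 of the 11 members with numbers 1 to 4 passed, as did 7 to 10 of the 11 members with numbers 5 to 8, 5 of the 7 members with numbers 9 and 10, and 2 to 3 of the 9 members with numbers 11 to 13. The high numbers that passed in all groups were Hoxb13, the last gene of the Hoxb cluster and a factor of the tail and the prostate, and Hoxc11, a gene of the lumbar region and hindlimb. Hoxa11, which patterns the forearm and lower leg, and Hoxa13, which patterns the hand and foot, passed in no group. Limb markers outside the clusters were measured as well: Pitx1 and Tbx4 of the hindlimb, Tbx5 of the forelimb and Barx1 were above background in no group, and Shox2 passed in late Dunn, early LM8 and late LM8 cells. On single arrays Tbx5 and Barx1 were above background on late Dunn replicate 1, and Tbx4 on late LM8 replicate 2.

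The 12 members above background in no group were Hoxa11, Hoxa13, Hoxb1, Hoxc12, Hoxd1, Hoxd3, Hoxd8, Hoxd9, Hoxd10, Hoxd11, Hoxd12 and Hoxd13. One array stood apart among them. On late Dunn replicate 1, Hoxd3 read -1.80 against -7.86 and -7.80 on the other late Dunn arrays, Hoxd10 read -3.14 against -8.22 and -8.18, and Hoxa13 read -2.85 against -6.93 and -8.04, and all were well above background on that array. The second Hoxa13 probe read -4.03 there, also above background, against -7.52 and -7.42. Genes of several other lists behaved alike on these arrays. Barx1 read -1.51 against -7.75 and -7.57, Tbx5 -3.18 against -7.80 and -7.75, and Cdx2 -2.56 against -8.46 and -8.17. The epithelial marker Epcam read -2.24, -8.25 and -7.30. On that array 2 of the 4 epithelial markers passed, and none on the other late Dunn arrays, while Cdh1 and Krt8 passed on none. Of the 5 limb markers 3 passed on that array, against 1 on each other late Dunn array. The summed epithelial signal, in units of the 75th percentile, was 0.57 on that array, 0.0255 and 0.0264 on the other late Dunn arrays, and 0.0109 to 0.182 on the remaining arrays. Late Dunn replicate 1 also had the highest share of probes above background, 59.7%, and the part of these values in the Hox signals was not tested. Hoxa11 was above background on late LM8 replicates 2 and 3, at -5.61 and -5.33, and Hoxa13 on early LM8 replicate 2, at -5.31.

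**Figure D2:**
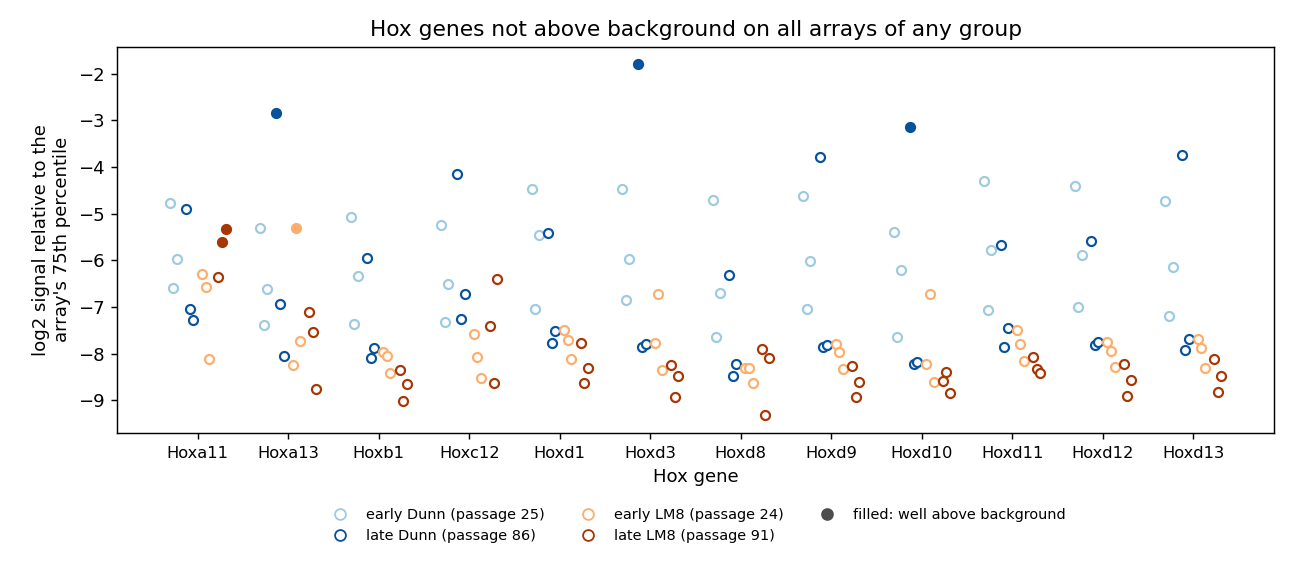
Signals of the 12 Hox genes above background in no group (log2 relative to the array's 75th percentile, y axis), 1 point per array, coloured by group. Filled points are well above background: late Dunn replicate 1 stands out for Hoxa13 (-2.85), Hoxd3 (-1.80) and Hoxd10 (-3.14).

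The other 6 members passed in some groups and not in others. Hoxa5, Hoxc5, Hoxc13 and Hoxd4 passed in both LM8 groups and in neither Dunn group. Hoxa7 missed the limit on 1 of 3 early Dunn arrays and passed in the other groups, and Hoxb3 passed in late Dunn and in both LM8 groups. Of these 6, Hoxc13 was the only one called between groups at an adjusted p; the others were dim, or spread widely between arrays.

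Hoxc13 closes the Hoxc cluster at chr15:102921131-102928814 on GRCm38.p6 and is known for its role in hair and nails. It read -5.20, -7.46 and -6.47 on the early Dunn arrays and -6.09, -8.17 and -8.16 on the late Dunn arrays, and was not well above background on any of these. In LM8 cells it read -4.11, -3.35 and -4.03 at early passage and -3.24, -2.85 and -2.87 at late passage, above background on every array. The highest Dunn value lay below the lowest LM8 value. The late LM8 level was called higher than the late Dunn level, by at least 5.61-fold (measured log2 difference 4.48 ± 0.63, SE; limma adjusted p = 0.0272). At early passage the difference was 2.55 ± 0.60 (limma adjusted p = 0.0698) with a lower bound of 1.65-fold, and was not called; with normexp background correction it was -0.91. The difference was positive on each of the 3 slides at both passages, from 1.09 to 4.11 at early and from 2.85 to 5.31 at late passage. The late difference was 5.17 (limma adjusted p = 0.000125) without late Dunn replicate 1. It ended as a call when late LM8 replicate 1, 2 or 3 or late Dunn replicate 2 or 3 was left out (limma adjusted p from 0.0778 to 0.167) and with the replicate number as a block (limma adjusted p = 0.133). From early to late LM8 cells Hoxc13 differed by 0.84 ± 0.27 (limma adjusted p = 0.241).

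Other genes of the cluster ran the other way. Hoxc8 and Hoxc11, genes of the chest and of the lumbar region, were lower in early LM8 than in early Dunn cells, and Hoxc9, which lies between them, was lower at an unadjusted p only. Hoxc8 (chr15:102990539-102994275) read -0.91, -1.40 and -0.98 in early Dunn and -2.74, -3.37 and -3.20 in early LM8 cells. The groups did not overlap, and the difference was -2.01 ± 0.33 (SE; limma adjusted p = 0.0272), with -2.22 to -1.83 on the 3 slides. Hoxc11 (chr15:102954526-102956701) read -1.34, -1.21 and -0.75 in early Dunn and -3.25, -2.60 and -2.97 in early LM8 cells. These did not overlap either, and the difference was -1.84 ± 0.34 (limma adjusted p = 0.0375), with -2.22 to -1.39 on the slides. On unscaled signals the differences were -0.52 for Hoxc8 and -0.35 for Hoxc11, and there the groups overlapped for Hoxc11 but not for Hoxc8. Hoxc9 (chr15:102977032-102984444) read 2.78, 2.65 and 3.05 in early Dunn and 1.55, 1.46 and 1.38 in early LM8 cells, again without overlap. It missed the threshold at -1.36 ± 0.29 (limma adjusted p = 0.0553). On unscaled signals the Hoxc9 groups overlapped and the sign turned to 0.13.

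In early LM8 cells 2 members of 38 were therefore lower than in early Dunn cells at an adjusted p, and none was higher. Over all genes 2.33% were called lower and 1.47% higher, so 2 of 38 was near the background share. Both calls were lost with the replicate number as a block, where the adjusted p was 0.0812 for both genes, and in 4 of the 6 fits that left out 1 array: without early LM8 replicate 1, 2 or 3 or early Dunn replicate 3 there were 0 calls, without early Dunn replicate 2 there were 6, and without early Dunn replicate 1 there were 3. At an unadjusted p, 5 members were lower, Hoxa6, Hoxa10, Hoxc8, Hoxc9 and Hoxc11, and 1, Hoxb3, was higher, against 9.44% and 4.92% of all genes.

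**Figure D3:**
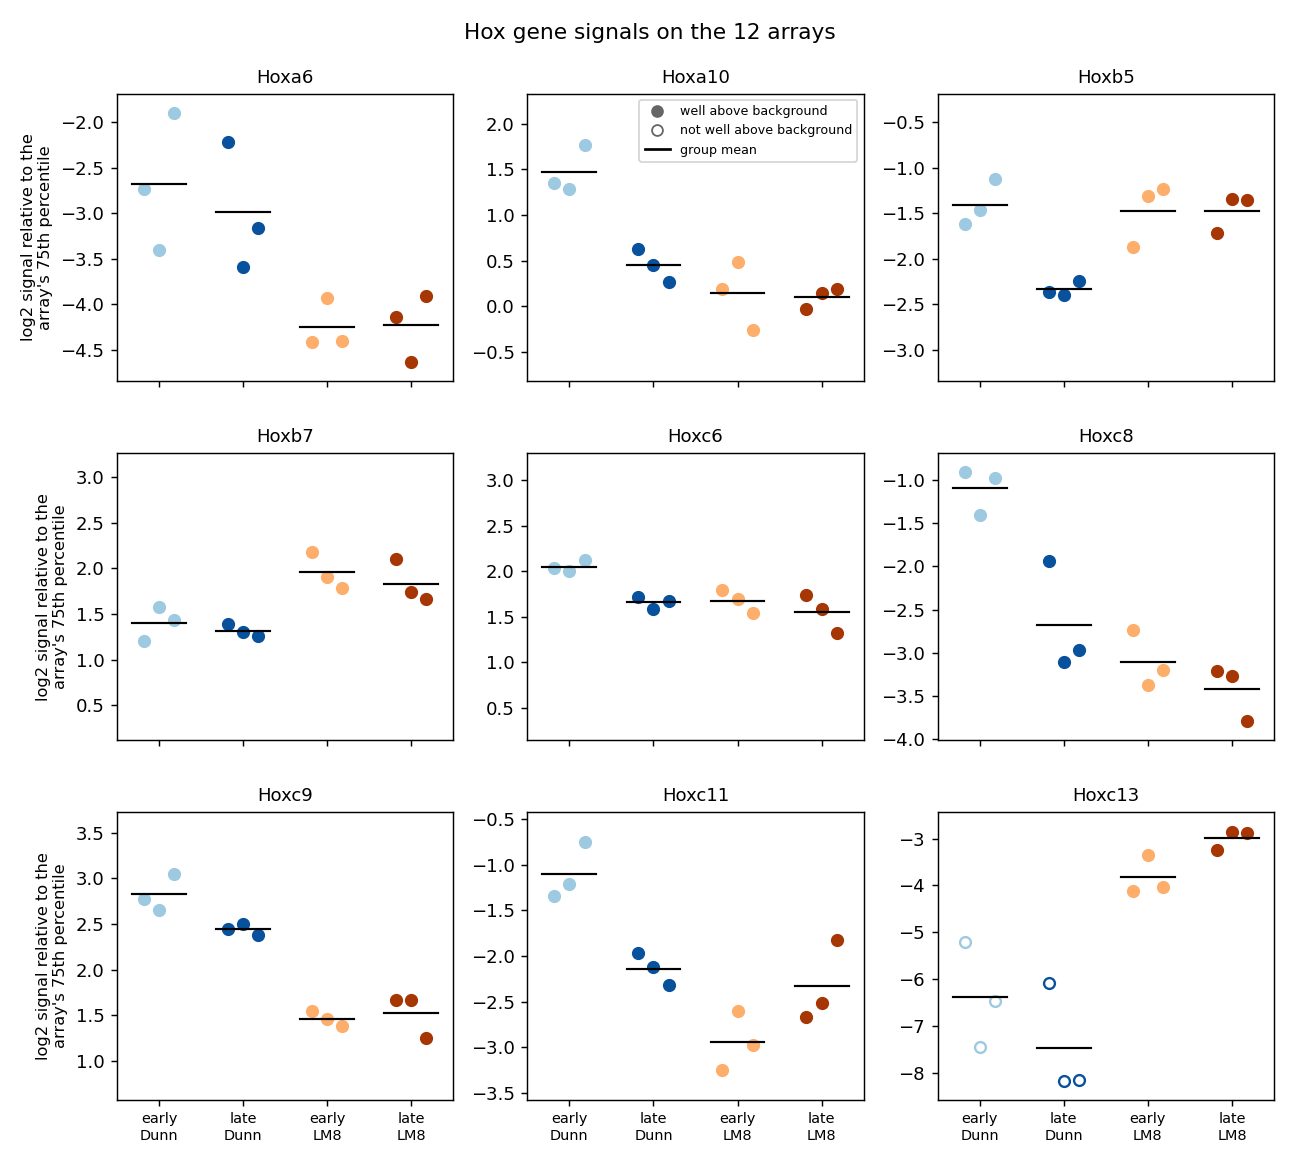
Signals of 9 Hox genes on the 12 arrays (log2 relative to the array's 75th percentile, y axis, own range for each gene), 1 point per array, with the group mean as a line and open points where the probe was not well above background. Hoxc8 and Hoxc11 are highest in early Dunn cells, Hoxc13 is above background only in LM8 cells, and Hoxb7 and Hoxc6 span less than 1 log2 unit over all arrays.

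Hoxa6, a trunk gene, read -2.74, -3.40 and -1.90 in early Dunn and -4.41, -3.93 and -4.40 in early LM8 cells, a difference of -1.56 ± 0.45 (limma adjusted p = 0.0738). At late passage it read -2.22, -3.59 and -3.16 in Dunn and -4.14, -4.63 and -3.91 in LM8 cells, a difference of -1.24 ± 0.44 (limma adjusted p = 0.214) and of -0.85 without late Dunn replicate 1. On the scaled signals the lines did not overlap at either passage, and neither difference passed at an adjusted p. On unscaled signals they overlapped at both. Early Dunn cells ran from 49.5 to 67.7 and early LM8 cells from 37 to 75.5. At late passage Dunn cells ran from 68 to 143 and LM8 cells from 58.7 to 82.6. Hoxa10, which patterns the lumbar spine and the thigh, read 1.35, 1.28 and 1.77 in early Dunn, 0.63, 0.45 and 0.27 in late Dunn, 0.19, 0.49 and -0.26 in early LM8 and -0.03, 0.14 and 0.19 in late LM8 cells. Early Dunn cells lay above the other 3 groups, and early LM8 minus early Dunn was -1.33 ± 0.34 (limma adjusted p = 0.0738) or 0.16 on unscaled signals. Hoxb3, a gene of the hindbrain and neck, had 2 probes that disagreed: the brighter gave 0.34 ± 0.30 between early LM8 and early Dunn cells, and the dimmer 2.01 ± 0.54, the one passing at an unadjusted p.

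The remaining differences between early LM8 and early Dunn cells did not pass at either threshold. Among the 20 members above background in both groups, 14 differences were negative and 6 positive, with a median of -0.58 against -0.46 over the 9677 genes above background in both; on unscaled signals 3 were negative and 17 positive. For Hoxa2, Hoxa3, Hoxb5 and Hoxb6 the 95% interval of the difference lay within 2-fold, 20% of these members against 12.3% of all such genes. Other members of low paralog number had wider intervals, among them Hoxb2 (-0.32 to 1.39) and Hoxb4 (-0.64 to 3.07). Hoxa4 differed by -0.95 ± 0.31, Hoxa9 by -0.88 ± 0.29, Hoxc4 by -0.80 ± 0.30 and Hoxc10 by -0.94 ± 0.30, each with a limma adjusted p between 0.0738 and 0.088.

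Between the lines at late passage only Hoxc13 was called, as higher in LM8 cells, among 38 members, against 1.35% of all genes called higher and 2.48% lower. At an unadjusted p, 1 member was higher, Hoxc13, and 1 lower, Hoxa6, against 5.33% and 6.71% of all genes. Hoxc8 read -1.94, -3.11 and -2.97 in late Dunn and -3.21, -3.27 and -3.79 in late LM8 cells, without overlap, and the difference was -0.75 ± 0.40 (95% interval -1.75 to 0.25). Hoxc11 read -1.97, -2.12 and -2.32 in late Dunn and -2.67, -2.51 and -1.82 in late LM8 cells, which overlapped, with a difference of -0.19 ± 0.31. Hoxc9 read 2.45, 2.50 and 2.38 against 1.67, 1.67 and 1.25, with no overlap and a difference of -0.92 ± 0.23 (limma adjusted p = 0.12). On unscaled signals the late groups overlapped for both Hoxc8 and Hoxc9. Hoxc8 ran from 78 to 173 in late Dunn and from 89.5 to 177 in late LM8 cells, and Hoxc9 from 3160 to 4750 and from 2940 to 5410. Hoxb5, a gene of the neck and shoulder, read -2.36, -2.40 and -2.24 in late Dunn and -1.72, -1.35 and -1.36 in late LM8 cells, also without overlap, with a difference of 0.86 ± 0.22 (limma adjusted p = 0.129). Hoxb7, another trunk gene, ran from 1.26 to 1.39 in late Dunn and from 1.66 to 2.10 in late LM8 cells, with a difference of 0.51 ± 0.23. Hoxc9, Hoxb5 and Hoxb7 thus did not overlap between the lines on the scaled signals and missed the 2-fold limit. The same held for Hoxa4, Hoxa9, Hoxa10, Hoxb4 and Hoxc4. Of these, only Hoxb4 was higher in LM8 cells, its highest late Dunn value at 0.39 and lowest late LM8 value at 0.40. On unscaled signals Hoxb4, Hoxb5 and Hoxb7 still did not overlap, with the LM8 arrays the brighter ones. Unscaled Hoxa9 turned around, with LM8 arrays at 240 to 423 above Dunn arrays at 154 to 212. Hoxa4, Hoxa10 and Hoxc4 overlapped once the scaling was removed. The share of all genes without overlap was not counted at either passage, so a lack of overlap cannot be read as particular to these members. The 95% interval lay within 2-fold for 7 of 22 members above background in both groups, Hoxa2, Hoxa9, Hoxa10, Hoxb4, Hoxc4, Hoxc6 and Hoxc11, or 31.8%, against 33.7% of all such genes.

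Within the Dunn line no member was called between passages 25 and 86 at an adjusted p, and over all genes 0% were called higher and 0.00497% lower. At an unadjusted p limma gave 4 lower, Hoxa10, Hoxb8, Hoxc8 and Hoxc11, and 0 higher, against 2.95% and 1.35% of all genes, and the methods' t-test gave 3 lower. The 4 calls fell to 1 without late Dunn replicate 3, to 2 without late Dunn replicate 2 and to 2 (1 of them higher) without early Dunn replicate 3. On the deposited signals without scaling there were 2 calls, both higher, and Hoxa10 and Hoxc11 differed there by -0.04 and -0.05. Hoxa10 differed by -1.02 ± 0.31 and Hoxc11 by -1.03 ± 0.32, and for both the late values given above lay below every early one. Hoxc8 differed by -1.58 ± 0.43, also without overlap, and by -1.94 without late Dunn replicate 1. On unscaled signals the early and late values overlapped for Hoxa10, Hoxc11 and Hoxc8 alike. The share of all genes without overlap between the Dunn passages was not counted. Hoxb8 read 0.31, 0.35 and 0.91 in early and -1.60, 0.18 and -1.92 in late Dunn cells, a difference of -1.63 ± 0.63. It missed the unadjusted threshold in 5 of the 6 fits that left out 1 array, with differences from -1.74 to -1.23, and passed it without late Dunn replicate 2, at -2.28. It also missed it in 1 fit over all 12 arrays and by the methods' t-test.

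Of the 20 members above background in both Dunn groups, 17 had a negative difference on the scaled signals, while on unscaled signals 4 were negative and 16 positive. The median was -0.47, against -0.29 over the 9668 genes above background in both. Hoxb7 (-0.08 ± 0.28) and Hoxb13 (-0.03 ± 0.32) were the only members with an interval within 2-fold, 10% against 16.2% of all such genes, so most members could have changed by more than 2-fold in these samples without a call. Hoxa7, a trunk gene, read -2.90, -2.05 and 0.02 in early and -0.02, 1.14 and 0.05 in late Dunn cells, the early arrays spreading over nearly 3 log2 units. Hoxb4, a neck gene also active in blood stem cells, read -0.59, 0.04 and -2.95 in early and -0.12, 0.39 and 0.22 in late Dunn cells, where 1 early array set the mean.

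Within the LM8 line no member was called between passages 24 and 91 at an adjusted p, at an unadjusted p, or by the methods' t-test at either, while 0.824% of all genes were called higher and 1.64% lower, and 2.15% and 2.53% at an unadjusted p. The count at an unadjusted p became 3, all higher in late cells, without early LM8 replicate 2, and 1, also higher, with normexp background correction, without scaling and with array weights. Among the 26 members above background in both LM8 groups the median difference was 0.01, against -0.08 over all 11782 such genes, with 14 positive and 12 negative. The range ran from -0.77 (Hoxb8) to 1.40 (Hoxa7). For 18 of the 26 (69.2%) the 95% interval lay within 2-fold, against 72.7% of all such genes. The 8 members with a wider interval were Hoxa5, Hoxa7, Hoxb4, Hoxb8, Hoxb9, Hoxc11, Hoxc13 and Hoxd4.

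Among the steady members, Hoxc6, a gene of the chest, read 1.79, 1.70 and 1.54 in early and 1.74, 1.59 and 1.32 in late LM8 cells, a difference of -0.13 ± 0.20. Hoxb2, a hindbrain gene, differed by 0.00 ± 0.24, Hoxb13 by 0.03 ± 0.27 and Hoxa3, a gene of the throat and thymus, by 0.06 ± 0.19. Hoxa7 gave the widest spread, at -2.69, 1.13 and 0.49 in early and 0.88, 0.95 and 1.32 in late LM8 cells, where 1 early array set the mean. Hoxb8 read -2.22, 1.10 and 0.35 in early and -1.90, -1.68 and 0.50 in late LM8 cells, and the groups overlapped. Hoxa2 differed by -0.51 ± 0.19 and fell short of 2-fold.

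Hoxd4, the single Hoxd gene above background, read -3.40, -3.73 and -1.31 in early Dunn, -3.87, -3.44 and -3.42 in late Dunn, -3.74, -1.19 and -1.52 in early LM8 and -2.81, -3.25 and -0.67 in late LM8 cells. The late Dunn and late LM8 values did not overlap, while the other pairs of groups did, and it passed the background limit on 2 of 3 arrays in each Dunn group. Hoxa5, a gene of the lung and neck, was also dim. It ran from -6.37 to -4.40 in early and from -5.52 to -2.62 in late Dunn cells, where it passed on 2 of 3 arrays. In LM8 cells it ran from -5.02 to -3.40 at early and from -3.75 to -3.05 at late passage. The lines overlapped at both passages, and the late difference was 0.56 ± 0.77. Hoxc5 ran from -4.67 to -3.32 in early and from -5.61 to -3.52 in late Dunn cells. In LM8 cells it ran from -3.52 to -2.92 at early and from -3.10 to -2.62 at late passage. Its differences between the lines, 0.84 ± 0.43 at early and 1.35 ± 0.62 at late passage, were not called. Hoxb9, a chest gene, read 0.50, 1.14 and -0.23 in early Dunn, -0.47 and 0.71 in late Dunn, where the spot of replicate 3 was left out as an outlier, and 0.65, 2.56 and 0.79 in early and 0.64, 1.41 and 1.85 in late LM8 cells. It differed by 1.18 ± 0.57 between the late groups (limma adjusted p = 0.269). Hoxb6, a trunk gene, ran from -0.54 to 0.54 over the 12 arrays, and its largest difference of the 4 comparisons was -0.59 ± 0.31 between late and early Dunn cells.

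**Figure D4:**
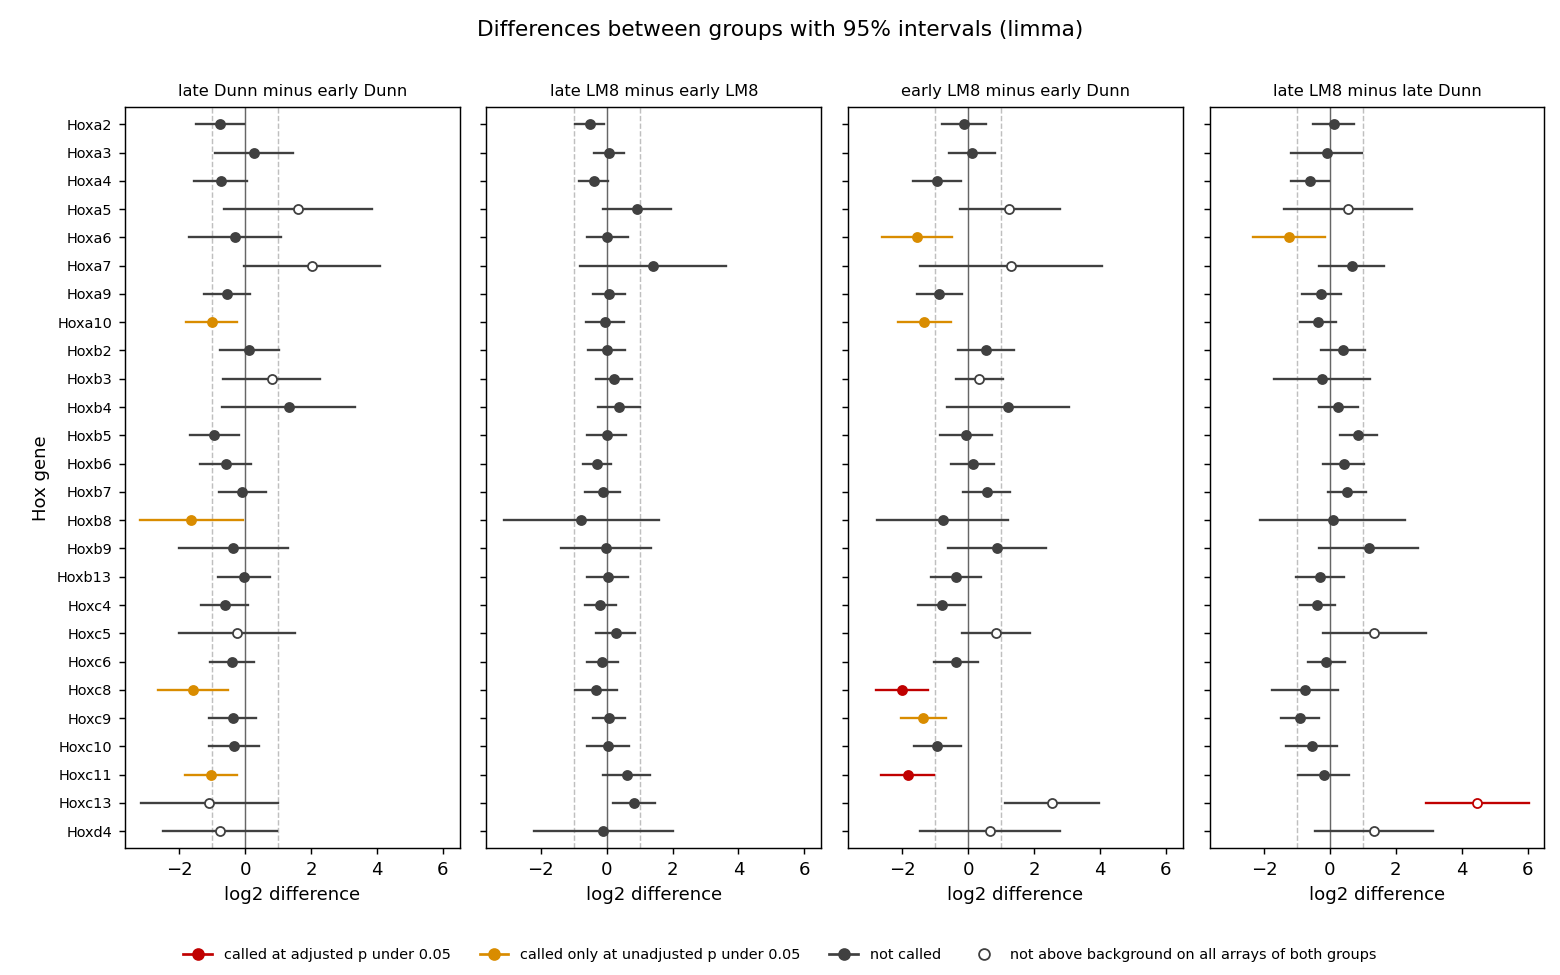
Log2 differences (x axis) with 95% intervals for the 26 Hox genes above background in at least 1 group, in the 4 comparisons. Dashed lines mark 2-fold, red marks calls at an adjusted p (Hoxc8 and Hoxc11 between the early groups, Hoxc13 between the late groups), and open points mark genes not above background on all arrays of both groups.

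The passage change was compared between the lines by an interaction term over the 12 arrays. No member passed at an adjusted p, against 0.68% of all genes, and 4 passed at an unadjusted p, Hoxa10, Hoxb5, Hoxc8 and Hoxc11, against 7.03%. Hoxc11 had the lowest p: its change was 1.64 ± 0.42 higher in LM8 than in Dunn cells (limma adjusted p = 0.241). The other interaction values were 0.98 ± 0.36 for Hoxa10, 0.92 ± 0.35 for Hoxb5 and 1.26 ± 0.50 for Hoxc8. The Dunn and LM8 passage changes were therefore not shown to differ for any Hox gene at the adjusted threshold.

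Genes that work with or on the Hox clusters were counted from fixed lists. Among the Meis and Pknox genes, whose products are homeodomain partners of Hox proteins, Pknox1 was called lower in LM8 cells at both passages, and none was called with passage in either line. Pknox1 differed by -1.22 ± 0.20 between the late groups at its brighter probe (limma adjusted p = 0.0448), while its other probe gave 0.56 ± 0.43. Of 16 Polycomb genes and 8 measured trithorax and H3K27 demethylase genes none was called in any of the 4 comparisons; at an unadjusted p limma gave 2 and 1 lower between the early groups and 3 and 0 higher between the late groups, and none with passage.

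Retinoic acid switches Hox genes on in the embryo, and Cyp26 enzymes break it down. Of 17 genes of this pathway and the Cdx family, 1 was called higher and 2 lower in early LM8 than in early Dunn cells, 1 lower in late LM8 than in late Dunn cells, and 1 lower in late than in early LM8 cells. Over all genes the shares were 1.47%, 2.33%, 2.48% and 1.64% in the same order. At an unadjusted p the counts were 1 higher and 2 lower between the late groups, and 1 higher and 1 lower between late and early Dunn cells. They were unchanged in the other comparisons. Cyp26b1 read 2.31, 2.34 and 3.21 in early Dunn and 3.91, 4.25 and 4.12 in late Dunn, against -1.36, -1.15 and -0.15 in early and -0.86, -0.67 and 0.07 in late LM8 cells. The lines lay far apart at both passages, by -3.51 ± 0.46 (limma adjusted p = 0.0123) and -4.58 ± 0.32 (limma adjusted p = 0.00331). Cyp26a1 was not well above background in Dunn cells, and read -1.02, -1.21 and -1.05 in early and -3.83, -3.80 and -4.02 in late LM8 cells. It was at least 11-fold higher in early LM8 than in early Dunn cells (limma adjusted p = 0.0136) and fell by 2.79 ± 0.18 on the log2 scale from early to late LM8 cells (limma adjusted p = 0.00102). The third call was a probe of the retinoic acid receptor Rara, lower in early LM8 cells (-2.06 ± 0.31, limma adjusted p = 0.0207).

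Only 2 of 12 listed noncoding genes of the clusters were matched. Hoxd3os1, transcribed opposite to Hoxd3, read -5.47, -5.21 and -5.79 in late Dunn and -2.97, -2.83 and -3.31 in late LM8 cells, higher in the latter by 2.46 ± 0.27 (limma adjusted p = 0.0124) and above background on 1 of the 3 late Dunn arrays, while Hoxd3 itself was above background in neither group. Hoxa11os, opposite to Hoxa11, was above background on all 12 arrays, at -3.82 to -2.07 in late Dunn and -1.07 to -0.48 in late LM8 cells, without overlap (2.16 ± 0.50, limma adjusted p = 0.102). Among 12 measured genes that flank the clusters, Snx10 near Hoxa was called lower in LM8 cells at both passages at the dimmer of its 2 probes, at -1.56 ± 0.30 and -1.32 ± 0.21 (limma adjusted p = 0.0422 and 0.0401), and no other was called. Its brighter probe gave -1.16 ± 0.29 and -1.14 ± 0.26 and was not called at either passage (limma adjusted p = 0.0738 and 0.0967). Each group was always at the same position of its slide, so position and group cannot be told apart.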

How the data were processed

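Total RNA of Dunn and LM8 cells was labelled with Cy3 and hybridised to 12 Agilent mouse arrays with 4 arrays on each of 3 slides. The labels name an RNeasy kit for the extraction, where the study's methods name another reagent. Per the file headers, the authors extracted spot intensities with Agilent Feature Extraction 10.7.3 on an array design annotated to mouse build mm9; a deposited table of the same intensities differed by at most 0.00719 on the log2 scale and carried no scaling between arrays.

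Control spots and spots with outlier flags were left out, spots of a probe were averaged, and the log2 processed signal minus the 75th percentile over probes of each array was used. Probes were named through RefSeq accessions of build GRCm38.p6, which matched 26581 of 39429 probes (67.4%). Differences were tested with limma 3.58.1 in R 4.3.3 on the 2 groups compared, with Benjamini-Hochberg adjustment over all probes at 0.05, and the interaction over all 12 arrays. A gene was called if 1 of its probes was, and is described by its brightest probe over the 12 arrays. Where the lower group was not well above background on any array, the fold is a bound, taken against the dimmest probe that each array still placed well above background or the probe's own signal if higher. The procedure was tested on simulated data. Gene coordinates and upstream sequences are from RefSeq. The number of arrays, 3 per group, limits the precision.

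Every listed gene above background in a group was named, by cluster and paralog number. Part of the list of homeodomain partners is not reported here. The members and the lists of other genes were chosen with earlier results of these data known. The planned mean signal is not among the columns used here, so normexp background correction (offset 50) took the median signal in its place. Replicate numbers mark slides. Same-numbered early and late Dunn arrays deviated together (correlations over probes of 0.683, 0.641 and 0.222, all above 0.1), which was not so for every pair in the other comparisons. Alternatives were another scaling, normexp, unscaled signals, a floor, a filter, a common fit, the replicate block, array weights, the methods' t-test, the mean of a gene's probes and leaving out each array.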

Additional observations from a re-analysis of the deposited data

Results flagged for a closer look

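For 2 of the 20 Hox genes above background in all 4 groups, the change from early to late passage ran in opposite directions in the lines on all 3 slides: Hoxa9 and Hoxc11. Hoxc11 changed by -1.57 to -0.62 in Dunn cells and by 0.09 to 1.15 in LM8 cells, and the LM8 change minus the Dunn change was 1.64 ± 0.42 (SE; limma interaction, adjusted p = 0.241). Hoxa9 changed by -0.75 to -0.32 in Dunn cells and by 0.05 to 0.10 in LM8 cells at its brighter probe, with a difference of 0.62 ± 0.31 (limma interaction, adjusted p = 1). Its other probe fell in both lines, by -0.34 in Dunn and -0.07 in LM8 cells, with an interaction of 0.26 ± 0.42. The opposite directions hold on the scaled signals only. On unscaled signals the brighter Hoxa9 probe rose on every slide in both lines, on slide 1 from 133 to 211 in Dunn and from 180 to 253 in LM8 cells. Unscaled Hoxc11 rose on Dunn slide 1, from 133 to 171, fell on the other Dunn slides and rose on every LM8 slide. Neither interaction passed the adjusted threshold. Over all 9578 genes above background in all groups, 347 (3.62%) showed such an opposite pattern, against 10% of these Hox genes, a share that rests on 2 genes.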

How the results depend on the processing

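The counts of 0 Hox genes changed with passage at an adjusted p, in Dunn and in LM8 cells, were 0 under every alternative run, the replicate block included, and without each array in turn. Between early LM8 and early Dunn cells the count of 2 members became 5 with quantile normalization, 1 with the percentile over probes above background on all arrays, 7 with normexp, 5 with a floor on dim signals, 6 with a filter on probes above background, 5 in 1 fit over all 12 arrays, 9 with array weights and 0 with the replicate block, and ranged from 0 to 6 without 1 array. On the deposited table without scaling it was 5, all higher in LM8 cells, where the main scaling gave 2, both lower; there Hoxa10 turned to 0.16 and Hoxc9 to 0.13. Between the late groups the 1 call, Hoxc13, became 0 with normexp, the floor on dim signals, the replicate block (adjusted p = 0.133) and the methods' t-test (adjusted p = 0.055), and ranged from 0 to 1 without 1 array: it was lost without late LM8 replicate 1, 2 or 3 or late Dunn replicate 2 or 3, and its difference stayed between 4.13 and 5.17. The interaction count of 0 became 2 with array weights, and was 0 without each array in turn. Why the counts moved was not tested. For the 11 differences past either threshold at the brightest probe of a member, 187 values were recomputed: 128 kept direction and side, 57 kept the direction only, and 2 reversed, as given above. Replicate numbers mark slides, so the replicate block was the shared slide, scanned together, in every comparison. Dim probes limit what can be said of Hoxa5, Hoxc5, Hoxd4 and the 12 members above background in no group.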
